A study of Mus musculus with 12 samples.

Results

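Fast excitatory signalling by glutamate in the nervous system is carried by ion channels built from 4 subunits each, and the AMPA and kainate receptors are 2 families of these channels. The 4 AMPA subunits are encoded by Gria1, Gria2, Gria3 and Gria4, and the 5 kainate subunits by Grik1, Grik2, Grik3, Grik4 and Grik5. These 9 genes were taken by symbol from the deposited table of protein-coding transcripts, which held 33 of their transcripts among 57109 transcripts of 21981 genes. All 9 genes were measured above 1 FPKM in every library, and all 9 entered every gene-level comparison.

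The libraries came from mouse trigeminal ganglia (TG), where the cell bodies of the sensory neurons of face and jaw lie, and from Sp5C, the spinal trigeminal nucleus caudalis, in which the pain fibres of those neurons end in the brainstem. The series is on long-lasting inflammatory pain of the jaw joint. All libraries were from wild type C57BL/6 mice aged 8 weeks, per the labels. The groups were STG and CTG in the ganglion and SSp5C and CSp5C in the nucleus, with 3 libraries in each. The letters S and C are not explained by the labels and were used as they stand, with every difference between them given as C minus S. Whether each library is a separate animal is not stated, so every p-value is set against the spread of these samples alone, and that spread may be technical.

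On GRCm38, per GENCODE M21, the AMPA genes lie apart from each other, Gria1 (ENSMUSG00000020524) at chr11:57011387-57330244, Gria2 (ENSMUSG00000033981) at chr3:80681450-80802835, Gria3 (ENSMUSG00000001986) at chrX:41400854-41678601 and Gria4 (ENSMUSG00000025892) at chr9:4417896-4796234. The kainate genes are Grik1 (ENSMUSG00000022935) at chr16:87895900-88290265, Grik2 (ENSMUSG00000056073) at chr10:49094833-49788766, Grik3 (ENSMUSG00000001985) at chr4:125490700-125714173, Grik4 (ENSMUSG00000032017) at chr9:42518135-42944493 and Grik5 (ENSMUSG00000003378) at chr7:25009849-25072346. Gria1, Gria3 and Grik3 are on the plus strand and the others on the minus strand.

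AMPA receptors open and close within milliseconds and carry most of the fast current at excitatory synapses, and a receptor that contains the edited product of Gria2 passes little calcium. Kainate receptors are slower and weaker at the synapse, act before it as well, and modulate transmitter release. In sensory ganglia the kainate subunit GluK1, encoded by Grik1, is a known component of the receptors on small-diameter neurons, while AMPA receptors on the neurons of the dorsal horn and of its trigeminal counterpart carry the fast input from such fibres.

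Each AMPA gene has a pair of alternative exons, flip and flop, of which a transcript carries one, and they encode a segment of the ligand-binding domain that sets how fast the channel desensitizes. The exon pairs of Gria2, Gria3 and Gria4 are printed here because the data gave these genes 3 different balances of the pair. Sequences are from GRCm38 with the GENCODE M21 annotation, read 5′ to 3′ in the sense of the transcript, and capitals mark the bases at which flip and flop of the same gene differ. The Gria2 exons lie on the minus strand at chr3:80691320-80691434 (flop) and chr3:80690404-80690518 (flip). The Gria3 exons lie on the plus strand at chrX:41654810-41654924 (flop) and chrX:41669501-41669615 (flip). The Gria4 exons lie on the minus strand at chr9:4432773-4432887 (flop) and chr9:4427030-4427144 (flip).
Gria2 flop: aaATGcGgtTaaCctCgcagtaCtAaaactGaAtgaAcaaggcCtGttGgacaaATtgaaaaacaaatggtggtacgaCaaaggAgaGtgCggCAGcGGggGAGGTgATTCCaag
Gria2 flip: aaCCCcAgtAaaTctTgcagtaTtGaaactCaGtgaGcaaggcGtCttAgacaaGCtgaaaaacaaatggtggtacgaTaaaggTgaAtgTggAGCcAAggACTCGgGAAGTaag
Gria3 flop: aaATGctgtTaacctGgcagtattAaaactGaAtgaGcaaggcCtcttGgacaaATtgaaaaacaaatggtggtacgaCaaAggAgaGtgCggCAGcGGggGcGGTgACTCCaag
Gria3 flip: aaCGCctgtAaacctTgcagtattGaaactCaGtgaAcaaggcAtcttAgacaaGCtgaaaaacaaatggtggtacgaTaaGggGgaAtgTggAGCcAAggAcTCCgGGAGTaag
Gria4 flop: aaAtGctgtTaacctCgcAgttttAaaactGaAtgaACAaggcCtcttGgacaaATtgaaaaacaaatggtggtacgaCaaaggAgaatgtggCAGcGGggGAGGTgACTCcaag
Gria4 flip: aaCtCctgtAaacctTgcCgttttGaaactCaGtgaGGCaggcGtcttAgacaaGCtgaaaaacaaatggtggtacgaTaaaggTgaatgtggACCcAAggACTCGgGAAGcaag
Every one of these coding exons is 115 bases long. Flip and flop differed at 36 bases in Gria1 and in Gria2, at 32 in Gria3 and at 31 in Gria4. Between genes, the flip exons shared 101 to 106 of 115 bases and the flop exons 101 to 109, so the same form of different genes was more alike than the 2 forms of one gene.

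The tissue labels were borne out by markers. All 7 sensory neuron markers were higher in TG, where their FPKM summed to between 802 and 903 per library against 10.9 to 40.1 in Sp5C. All 6 markers of inhibitory hindbrain neurons were higher in Sp5C, with sums of 323 to 372 against 0.375 to 0.824. The 8 general neuron markers had a mean log2(FPKM + 1) of 6.86 to 7.11 in TG and 6.85 to 6.92 in Sp5C, although single markers went both ways, 4 higher in TG (Uchl1 at a log2 difference of 1.45) and 3 in Sp5C (Snap25 at -1.30). Correlations between libraries of log2 values were 0.974 to 0.989 within groups and 0.765 to 0.803 between tissues. A pair of ganglion libraries stood apart from the rest by other tissue: STG replicate 1 held a summed FPKM of 2860 for 7 pituitary markers, and CTG replicate 1 held 816 for 8 bone marrow markers. Next to these, CTG replicate 1 held 51.6 for the pituitary list and CTG replicate 3 held 281 for the bone marrow list, while the other TG libraries held 2.57 to 15.5 and 3.38 to 19.7. Gene differences between S and C in TG are given with and without STG replicate 1 and CTG replicate 1. The tissue differences of all 9 genes were also called without them. The 6 cerebellum markers summed to 14.2 to 15.4 FPKM in SSp5C and 16.4 to 26.5 in CSp5C. In TG they gave 12.1 to 19.8, with Calb1 at a mean of 15.8. Gabra6 stood at 1.59 ± 2.32 FPKM in Sp5C (SD, n = 6). Of the 5 markers tested between C and S in Sp5C, limma called 0, with a median log2 difference of 0.36. The part of such tissue in the Sp5C values was not tested.

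The ganglion and the nucleus differed in the RNA levels of the receptor genes. All 4 AMPA genes and the kainate genes Grik2, Grik3 and Grik5 were higher in Sp5C, while Grik1 and Grik4 were higher in TG. The difference was widest for Gria1, at 11.4-fold higher mean FPKM in Sp5C, and for Grik1, at 4.32-fold higher mean FPKM in TG. All 9 genes passed the test between tissues (limma on log2(FPKM + 1), two-sided, adjusted p at or under 0.05 over 13081 genes), 2 of them higher and 7 lower in TG. Of all genes tested, 71.2% passed, 36.2% higher and 35% lower in TG, so a difference between these tissues was the usual state of a gene. The median of the 9 log2 differences was -0.94, against 0.01 over all genes tested. In such bulk samples, fewer cells of a type and less RNA per cell cannot be told apart.

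**Figure D1:**
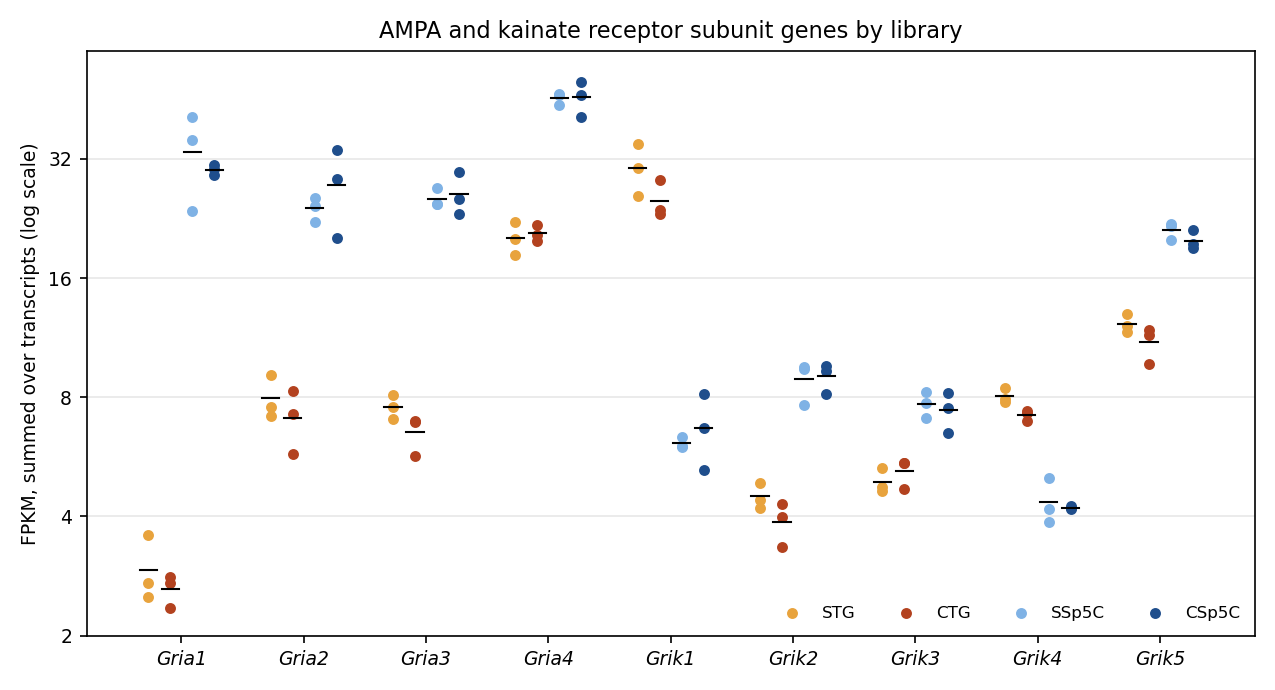
FPKM of the 9 subunit genes, summed over transcripts, on a log axis, with 1 point per library, colours for the 4 groups of 3 libraries and black lines for group means. Points of the 2 tissues do not overlap for any gene, Gria1 sits lowest in the ganglion at 2.35 to 3.6, and the S and C points of a tissue lie close together.

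Gria1 encodes GluA1, the AMPA subunit best known for its delivery to synapses during long-term potentiation. Its FPKM in TG ran from 2.35 through a median of 2.72 to 3.6, and in Sp5C from 23.6 through 30.4 to 40.7. No ganglion library came within reach of the nucleus, and Gria1 was the least abundant of the 9 genes in TG and the second in Sp5C. The log2 difference, TG minus Sp5C, was -3.10 (SE 0.118, limma adjusted p = 8.22e-10).

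Gria2 encodes GluA2, the subunit whose edited pore residue blocks calcium entry. Its FPKM was 5.74, 7.41 and 9.13 (lowest, median, highest) in TG and 20.2, 24.9 and 33.7 in Sp5C. The ranges did not overlap, and the log2 difference was -1.64 (SE 0.121, limma adjusted p = 2.69e-07). Gria3, which encodes GluA3, a usual partner of GluA2, ran from 5.69 through 7.01 to 8.1 in TG and from 23.2 through 25 to 29.6 in Sp5C. Its levels were almost those of Gria2 in both tissues, and its log2 difference was -1.73 (SE 0.0682, limma adjusted p = 8.84e-10).

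Gria4, which encodes GluA4, a subunit of fast-gating receptors in hindbrain and other circuits, led the AMPA genes by summed FPKM in both tissues. It stood at 18.3, 20.3 and 22.2 (lowest, median, highest) in TG and at 40.9, 46.4 and 50 in Sp5C. The tissues did not overlap, although the log2 difference of -1.12 was the smallest of the 4 AMPA genes (SE 0.0587, limma adjusted p = 1.02e-08). In Sp5C the lead of Gria4 rested on the sum over its transcripts. The highest single transcript there had a mean FPKM of 15.3 for Gria4, 22.4 for Gria1, 22.3 for Gria2 and 16.9 for Gria3.

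Grik1 encodes GluK1, which can form kainate receptors by itself or with the high-affinity subunits. Its FPKM ran from 23.2 through 27 to 34.9 in TG and from 5.23 through 6.19 to 8.16 in Sp5C. Every ganglion library lay above every nucleus library, and Grik1 was the most abundant of the 9 genes in TG and the second lowest in Sp5C. The log2 difference was 1.95 (SE 0.0992, limma adjusted p = 8.29e-09). The first rank of Grik1 in TG rested on the sum over its transcripts. Its highest single transcript there had a mean FPKM of 9.35, against 11.6 for the only Grik5 transcript.

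Grik2 and Grik3 encode GluK2 and GluK3, the other subunits able to form a channel alone. Grik2 stood at 3.34, 4.26 and 4.87 (lowest, median, highest) in TG and at 7.64, 9.38 and 9.6 in Sp5C, a log2 difference of -0.94 (SE 0.0731, limma adjusted p = 3.29e-07). Grik3 stood at 4.63, 5.01 and 5.46 in TG and at 6.5, 7.61 and 8.27 in Sp5C, the smallest log2 difference of the 9 at -0.50 (SE 0.0653, limma adjusted p = 3.07e-05). For both genes all 6 nucleus libraries lay above all 6 ganglion libraries.

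Grik4 and Grik5 encode GluK4 and GluK5, high-affinity subunits that need a partner from Grik1, Grik2 or Grik3 to form a channel, and they moved in opposite directions. Grik4 ran from 6.98 through 7.58 to 8.45 in TG and from 3.88 through 4.19 to 5.01 in Sp5C, a log2 difference of 0.71 (SE 0.0542, limma adjusted p = 2.85e-07). Grik5 ran from 9.7 through 11.7 to 13 in TG and from 19.1 through 20.6 to 21.9 in Sp5C, a log2 difference of -0.77 (SE 0.0533, limma adjusted p = 1.14e-07). Neither gene's tissues overlapped. Groups of libraries from the tissues were free of overlap in 53.7% of all genes tested, so this too was common.

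FPKM is scaled to transcript length, which allows levels of different genes to be set side by side, here as sums over transcripts. In TG the order of mean FPKM was Grik1 at 27.7 ± 4.47 (SD, n = 6), Gria4 at 20.5 ± 1.42, Grik5 at 11.6 ± 1.09, Grik4 at 7.63 ± 0.53, Gria2 at 7.53 ± 1.15, Gria3 at 7.05 ± 0.802, Grik3 at 5.04 ± 0.399, Grik2 at 4.18 ± 0.508 and Gria1 at 2.78 ± 0.432. The ranges of neighbours overlapped for Grik4 with Gria2, Gria2 with Gria3, Grik3 with Grik2, and Grik2 with Gria1. In Sp5C the order was Gria4 at 45.7 ± 3.08 (SD, n = 6), Gria1 at 31.7 ± 5.89, Gria2 at 25.7 ± 4.83, Gria3 at 25.7 ± 2.26, Grik5 at 20.5 ± 1.16, Grik2 at 8.95 ± 0.834, Grik3 at 7.55 ± 0.682, Grik1 at 6.41 ± 0.988 and Grik4 at 4.28 ± 0.381. Here the mean of each AMPA gene stood above that of every kainate gene, although the lowest Gria2 library, at 20.2, lay under the highest Grik5 library, at 21.9. Overlapping neighbours were Gria1 with Gria2, Gria2 with Gria3, Grik2 with Grik3, and Grik3 with Grik1. By the highest single transcript in Sp5C, Grik5 at 20.5 stood above Gria3 at 16.9 and Gria4 at 15.3. It stood under Gria1 at 22.4 and Gria2 at 22.3.

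Summed over a family, AMPA genes gave 37.8 ± 2.1 FPKM in the ganglion and 129 ± 10.6 in the nucleus (SD, n = 6 each), 3.4-fold more in the nucleus. Kainate genes gave 56.2 ± 6.07 in TG, between 49 and 65.4, and 47.7 ± 1.99 in Sp5C, between 44.7 and 50.2. The kainate sums of the tissues overlapped, although each of the 5 genes differed. Kainate genes made up 59.7% ± 2.37 of both families together in TG and 27.1% ± 1.25 in Sp5C (SD, n = 6 each).

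Within a family, the share of each gene does not depend on the scale of a library. Gria4 made up 54.2% ± 3.9 of AMPA FPKM in TG and 35.6% ± 2.06 in Sp5C, and Gria1 made up 7.37% ± 1.17 and 24.6% ± 4.07 (SD, n = 6 each). So the ganglion held more Gria4 and less Gria1 within the family. Gria2 kept 19.8% ± 2.17 in TG and 19.9% ± 2.31 in Sp5C, a difference of -0.0228 percentage points (two-sided exact permutation p = 0.978). Against the other 3 AMPA genes together, Gria2 FPKM stood at 0.248 ± 0.0341 in TG and 0.249 ± 0.0367 in Sp5C (ratio, SD, n = 6 each). The Gria4 sums include a short transcript that holds neither flip nor flop, with 39.1% of the gene in TG and 33.2% in Sp5C. This transcript had a mean FPKM of 8.01 in TG and 15.2 in Sp5C, a larger part of the AMPA sum in TG. The near-equal Gria2 share and ratio thus rest on counting it, and the values without it were not computed. Gria3 made up 18.6% ± 1.55 and 20.0% ± 1.51, a difference of -1.39 points (two-sided exact permutation p = 0.156). With the highest transcript of each gene only, the Gria3 share turned to 6.12 points higher in TG and passed (adjusted exact permutation p = 0.00278). A p above the threshold does not show that these 2 shares are equal.

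Among kainate genes, Grik1 made up 49.1% ± 2.6 of the family in TG and 13.4% ± 1.99 in Sp5C (SD, n = 6 each). Grik5 took the place of the leading gene in Sp5C, with 43.1% ± 2.52 against 20.7% ± 1.27 in TG. Grik2 made up 7.44% ± 0.483 in TG and 18.7% ± 1.31 in Sp5C, Grik3 9.07% ± 1.32 and 15.8% ± 0.996, and Grik4 13.7% ± 0.987 and 8.96% ± 0.628. For all 5 kainate shares and for Gria1 and Gria4, the tissues did not overlap, and each had an exact permutation p of 0.00216, the smallest that 6 libraries against 6 can give (two-sided, 0.00278 after Benjamini-Hochberg adjustment for the 9 shares, which are not independent since each family sums to 100%).

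**Figure D2:**
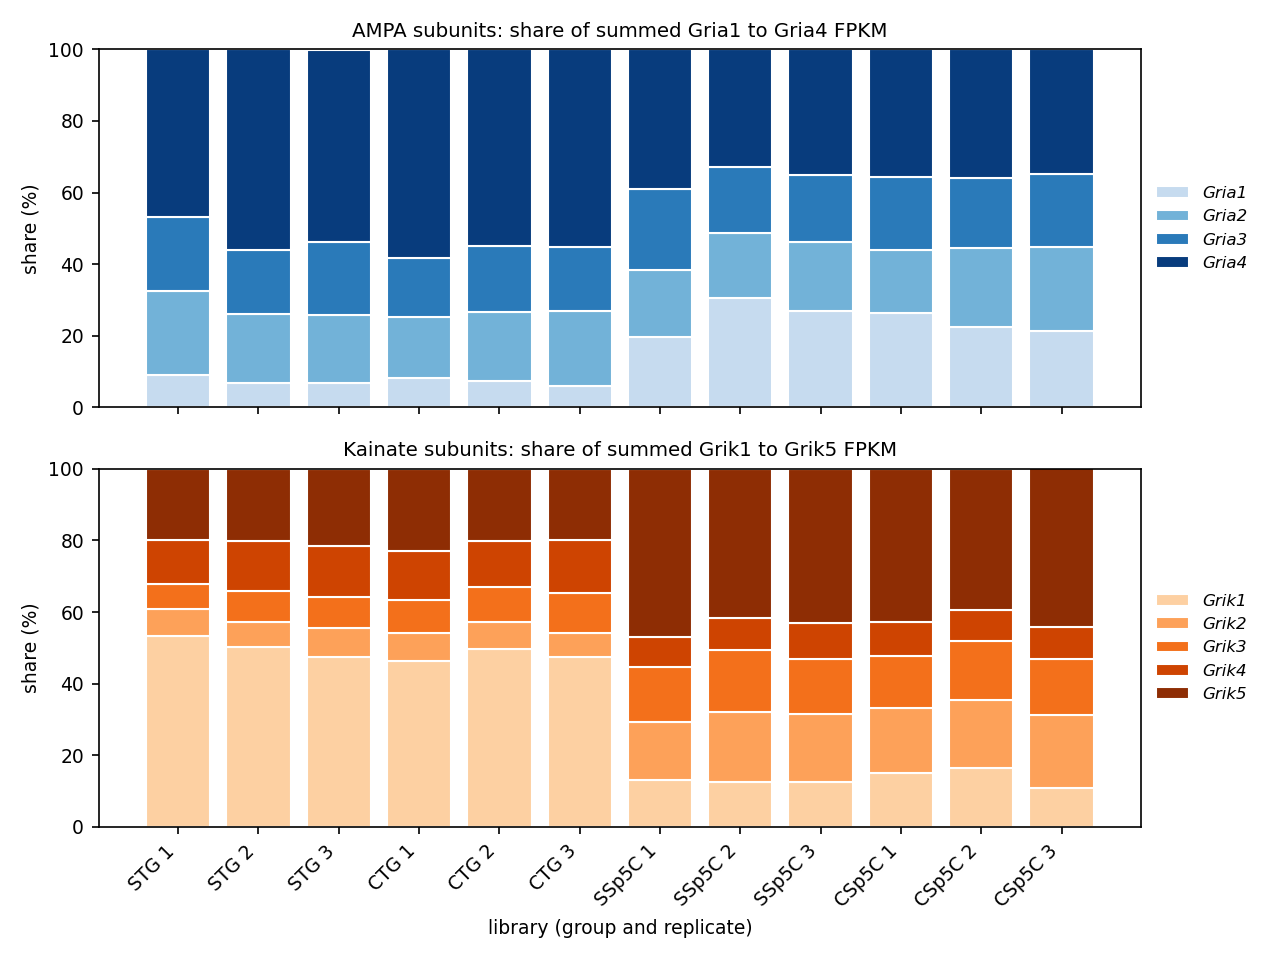
Share in percent of each gene in the summed FPKM of its family, as stacked bars with 1 bar per library, AMPA above and kainate below. By sums over transcripts, Gria4 leads the AMPA family in every library. By the same sums, the leading kainate gene is Grik1 in the 6 ganglion libraries and Grik5 in the 6 nucleus libraries.

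Apart from Gria1-203, Gria3-203 and Gria4-203, which hold neither exon, the listed transcripts of the 4 AMPA genes fell into flip and flop forms. The transcripts differ elsewhere too, as Gria2 shows with 10371 bases for flop and 4026 for flip, and the flop forms Gria3-209 and Gria4-201 have no base of their own, so a flop share is that of whole transcripts as estimated and not of reads on the exon. Flop made up 87.4% ± 3.89 of flip plus flop FPKM of Gria2 in TG and 86.6% ± 1.37 in Sp5C, and 73.6% ± 8.41 and 71.4% ± 5.48 for Gria1 (SD, n = 6 each). Leaving out Gria4-203, with 39.1% of the gene in TG and 33.2% in Sp5C, Gria4 had almost even forms. Its flop share was 52.1% ± 8.66 and 49.7% ± 6.2. None of these 3 genes differed between tissues beyond the spread (two-sided exact permutation p = 0.673 for Gria2, 0.61 for Gria1 and 0.632 for Gria4).

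Gria3 was mostly flip in both tissues and almost wholly so in the ganglion. Its flop share in STG was 4.28%, 6.24% and 4.89%, and in CTG 2.87%, 4.24% and 4.0%. In SSp5C it was 44.0%, 34.3% and 29.0%, and in CSp5C 29.4%, 33.8% and 30.4%. The tissues stood far apart, at 4.42% ± 1.11 and 33.5% ± 5.62 (SD, n = 6 each), a difference of -29.1 percentage points (two-sided exact permutation p = 0.00216, 0.00866 after Benjamini-Hochberg adjustment for the 4 genes).

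This difference rested on a single transcript. Gria3-209 (ENSMUST00000165288), a flop form of 2667 bases each base of which also lies in another listed Gria3 transcript, was listed at 0 FPKM in all 6 TG libraries. In SSp5C it was listed at 11.4, 7.7 and 6.06 FPKM, and in CSp5C at 5.82, 7.7 and 7.56. An exact 0 in a table of estimates can be a failed estimate, and without this transcript the Gria3 flop shares differed by only -0.11 points (adjusted exact permutation p = 0.859). The main flip form, Gria3-201 (ENSMUST00000076349), had a mean FPKM of 6.52 ± 0.663 in the ganglion and 16.9 ± 1.81 in the nucleus (SD, n = 6 each), and the other flop form, Gria3-202 (ENSMUST00000115103), at 0.305 ± 0.0893 and 0.82 ± 0.311.

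**Figure D3:**
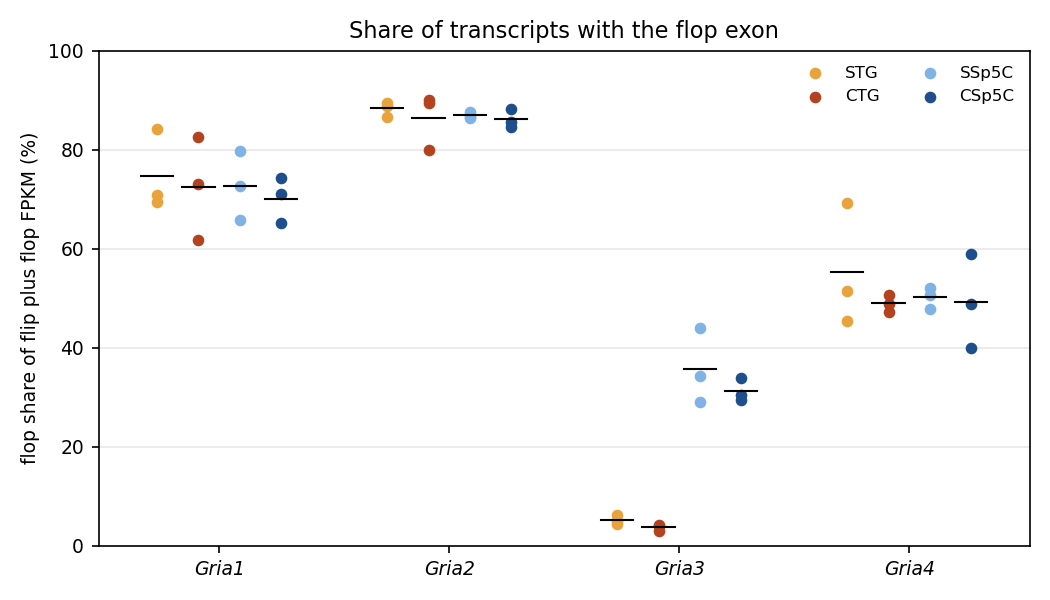
Flop share in percent of flip plus flop FPKM for the 4 AMPA genes, with 1 point per library, colours for the 4 groups and black lines for group means. Gria2 and Gria1 lie high, Gria4 near the middle, and Gria3 at 2.87% to 6.24% in the ganglion against 29.0% to 44.0% in the nucleus.

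Of the 33 transcripts, 21 had a mean of at least 0.5 FPKM over all libraries and were tested, 12 lay under it, and 1 of these, a Grik2 transcript (ENSMUST00000218669), was listed at 0 in every library. Grik3 and Grik5 had a single transcript each. Between tissues 15 of the 21 passed (limma on log2(FPKM + 0.5), adjusted p at or under 0.05), 2 higher and 13 lower in TG, where 48.7% of 24797 transcripts did, 24.3% higher and 24.4% lower. The flop forms Gria3-202 and Gria3-209 reached a mean of 0.5 FPKM in Sp5C alone and passed the filter only through that tissue. Their tissue means thus had to differ, which favoured a call. Of the 19 transcripts that reached it in both tissues, 13 passed, 2 higher and 11 lower in TG. The median of the 21 log2 differences was -0.80, against 0.01 over all transcripts tested. The transcripts higher in TG were Grik1-201 (ENSMUST00000023652) with a log2 difference of 2.79 (SE 0.473, limma adjusted p = 0.00068) and Grik4-202 (ENSMUST00000114865) with 0.81 (SE 0.108, limma adjusted p = 0.000113). Each base of Grik1-201 also lies in another listed Grik1 transcript, so its value is that of a whole transcript as estimated. The other 4 tested Grik1 transcripts had log2 differences of 0.79 to 1.79, short of the threshold, and each of them passed when 1 or another library was left out.

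Shares of a transcript in its gene were compared for 20 transcripts, and 5 passed, each with an adjusted exact permutation p of 0.00866. A pair of them were the Gria3 forms Gria3-201 and Gria3-209, both of which rest on the listing of Gria3-209 at 0 in the ganglion. In Gria4, a short transcript of 11 exons that holds neither flip nor flop, Gria4-203 (ENSMUST00000163309), made up 39.1% ± 1.6 of the gene in TG and 33.2% ± 1.58 in Sp5C (SD, n = 6 each). It ran from 36.9% to 40.6% in TG and from 31.0% to 34.8% in Sp5C, without overlap. In Grik2, the long transcript Grik2-207 (ENSMUST00000218823), of 9427 bases, made up 63.3% ± 7.23 in TG and 81.0% ± 4.56 in Sp5C, and the short Grik2-209 (ENSMUST00000219509), of 1542 bases, 17.3% ± 5.14 and 3.22% ± 2.04. Grik2-209 was low in both tissues, with mean FPKM of 0.712 ± 0.185 in the ganglion and 0.285 ± 0.189 in the nucleus. Each of its bases also lies in another listed Grik2 transcript.

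The 7 listed transcripts of Grik1 varied widely from library to library. Known splice forms of GluK1 differ by an insert in the extracellular part and by alternative tails at the inner end, and coding exons of 45 and 87 bases are each present in some of the listed transcripts and absent from the others. They are shown because the shares given here are those of the transcripts that hold them. Both lie on the minus strand, the first at chr16:87955289-87955333 and the second at chr16:87896809-87896895, and are printed in lower case with nothing marked.
Grik1 exon of 45 bases: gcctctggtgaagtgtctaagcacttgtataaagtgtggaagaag
Grik1 exon of 87 bases: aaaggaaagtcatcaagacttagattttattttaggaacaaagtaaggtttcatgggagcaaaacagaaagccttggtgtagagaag
The 45-base exon was in 3 of the 7 transcripts, which took 7.83%, 74.2% and 38.6% of Grik1 FPKM in the STG libraries and 32.6%, 71.5% and 16.8% in the CTG libraries. In SSp5C these transcripts took 31.6%, 60.4% and 54.5%, and in CSp5C 60.5%, 67.6% and 40.3%. No group held together, and the spread within the ganglion was wider than the distance between tissue means of 40.3% ± 27.5 and 52.5% ± 13.7 (SD, n = 6 each). The 87-base exon was in 2 transcripts, with 34.6% ± 6.22 in TG and 55.1% ± 20.0 in Sp5C. Grik1-201 and Grik1-209 have no base of their own, and the other listed Grik1 transcripts have 1 to 72. These exon shares are thus those of whole transcripts as estimated and not of reads on the exons. The coefficient of variation over the 6 TG libraries was 16.1% for the summed gene but 50.6% to 110% for its 5 transcripts with a mean of at least 0.5 FPKM over all libraries. In Sp5C it was 15.4% for the gene and 53.6% to 105% for the transcripts. The gene sum of Grik1 was thus steadier than the values of its transcripts, Grik1-201 included. Grik4 showed this too, with 6.95% for the gene and up to 62.3% for a transcript in TG, and 8.9% and 66.9% in Sp5C. For Gria4 the values were 6.96% and up to 54.4% in TG, and 6.75% and up to 34.0% in Sp5C.

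**Figure D4:**
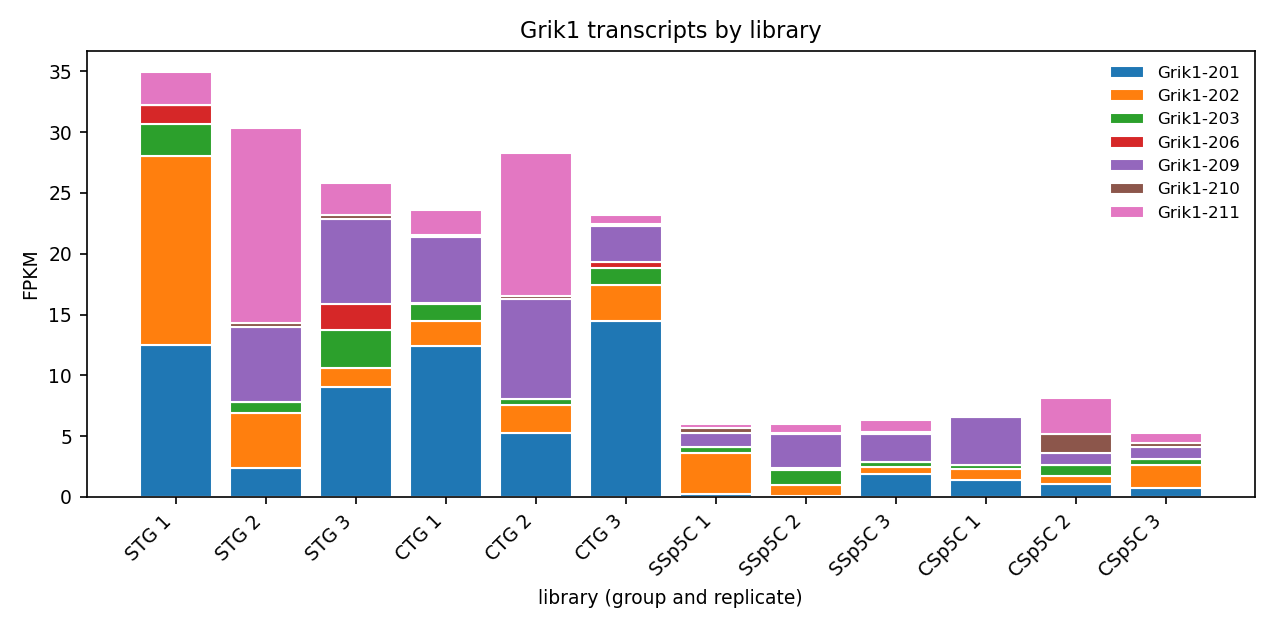
FPKM of the 7 listed Grik1 transcripts, stacked, with 1 bar per library. The full height of a bar is the gene sum, 23.2 to 34.9 in the ganglion and 5.23 to 8.16 in the nucleus, while the colours that make up the bars differ from library to library within a group.

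No subunit gene was called between C and S in either tissue. In TG 0 of 9 genes passed limma's test (adjusted p 0.96 to 0.976), and 0 had an unadjusted p under 0.05, where 0.00775% of 12906 genes were called and 4.7% had such an unadjusted p. In Sp5C 0 of 9 passed (adjusted p 0.931 to 0.998), 0 with an unadjusted p under 0.05, where 0.0315% of 12690 genes were called and 5.02% had such a p. The difference between the tissues in the C minus S effect was tested as well and was called for 0 of 9 genes (limma adjusted p 0.898 to 0.999), where 0% of 13081 genes were called and 5.41% had an unadjusted p under 0.05. The transcript filter was applied within each tissue here and passed 21 transcripts in TG, 19 of which were also tested between tissues, and 21 in Sp5C. Of these, limma called 0 in TG and 0 in Sp5C, where 0.0703% and 0.00835% of all transcripts tested were called, and 0 had an unadjusted p under 0.05 in either tissue, where 4.54% and 4.56% of all did.

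In the ganglion most values were lower in C, and none passed. Grik1 FPKM was 34.9, 30.3 and 25.8 in STG and 23.7, 28.3 and 23.2 in CTG. The groups overlapped, and the log2 difference was -0.26 (95% interval -0.56 to 0.04, limma adjusted p = 0.96). Without STG replicate 1 and CTG replicate 1, the pair of libraries with the highest pituitary and bone marrow sums, it was -0.12.

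Gria3 FPKM was 8.1, 7.06 and 7.56 in STG and 5.69, 6.93 and 6.97 in CTG. Grik4 FPKM was 7.92, 8.45 and 7.8 in STG and 6.98, 7.37 and 7.28 in CTG. In these 2 genes every CTG library lay under every STG library, which is 2 of 9, against 10.8% of all genes tested without overlap in either direction. The log2 difference was -0.19 for Gria3 (95% interval -0.41 to 0.03) and -0.14 for Grik4 (95% interval -0.29 to 0.01), each with a limma adjusted p of 0.96. Without the same pair of libraries they were -0.06 and -0.13.

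Gria2 FPKM was 9.13, 7.56 and 7.19 in STG and 5.74, 7.26 and 8.32 in CTG, which overlapped, with a log2 difference of -0.15 (95% interval -0.48 to 0.18, limma adjusted p = 0.96). It was 0.07 without the pair of libraries, so the sign turned. The remaining log2 differences in TG were -0.11 for Gria1, 0.04 for Gria4, -0.18 for Grik2, 0.07 for Grik3 and -0.15 for Grik5, and without the pair -0.03, 0.01, -0.14, 0.10 and -0.16. The mean log2 value was lower in C for 7 of the 9 genes, and the median of the 9 was -0.15 against -0.01 over all genes tested. Without the pair it was lower for 6 of 9, with a median of -0.06. The lowest ends of the 95% intervals in TG, -0.56 for Grik1 and -0.48 for Gria2, are the sizes of decrease that these libraries could not exclude.

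In the nucleus, Gria2 FPKM was 22.2, 24.3 and 25.5 in SSp5C and 20.2, 28.5 and 33.7 in CSp5C, with a log2 difference of 0.16 (95% interval -0.26 to 0.58, limma adjusted p = 0.932). Gria1 FPKM was 23.6, 40.7 and 35.8 in SSp5C and 30.1, 29.1 and 30.8 in CSp5C, with a log2 difference of -0.12 (95% interval -0.57 to 0.34, limma adjusted p = 0.954). For both genes, one group lay within the range of the other. The other 7 genes had log2 differences between -0.09 (Grik5) and 0.10 (Grik1), and the groups overlapped in all 9 genes, where 10.9% of all genes tested were without overlap. The median of the 9 was 0, the same as over all genes tested.

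**Figure D5:**
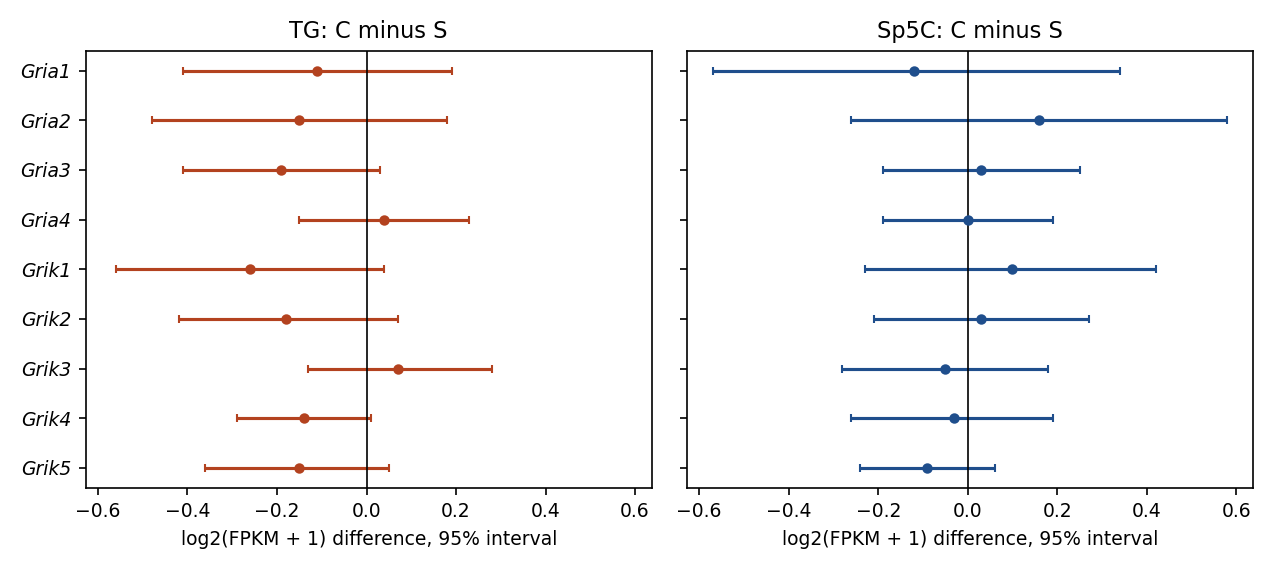
Difference C minus S in log2(FPKM + 1) for the 9 genes, TG on the left and Sp5C on the right, with points for the limma estimate from 3 against 3 libraries and bars for the 95% interval. All 18 bars cross 0, and 7 of the 9 points in TG lie under it.

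Shares of the families were compared between C and S as well. Over the 18 shares of a gene in its family, the difference C minus S lay between -2.54 and 3.87 percentage points, and 0 passed (smallest adjusted exact permutation p = 0.96). With 3 libraries against 3 the smallest exact p is 0.1, so this test could not pass. That p was reached by 1 of the 18 shares, and chance alone reaches it at a rate of 0.1 per test. It was Grik3 in TG, which made up 7.08%, 8.75% and 8.71% of kainate FPKM in STG and 9.17%, 9.6% and 11.1% in CTG. The Grik3 share of every CTG library lay above that of every STG library, also without STG replicate 1 and CTG replicate 1. Grik3 FPKM itself overlapped, at 4.63, 5.29 and 4.74 in STG and 4.68, 5.46 and 5.46 in CTG. The highest share was that of CTG replicate 3, which held 281 for the bone marrow list and was not left out. The kainate sum was 60.1 ± 5.5 FPKM in STG and 52.3 ± 4.09 in CTG (60.4 and 54.4 against 56.9 and 49.0 in the libraries left without the pair), and 48.2 ± 1.85 and 47.3 ± 2.4 in SSp5C and CSp5C (SD, n = 3 each).

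Genes that work with the receptors were taken from lists. AMPA auxiliary subunits, which travel with the channel and slow or boost its current, were mostly higher in Sp5C, as the AMPA genes were, with 14 of 15 higher there, 1 higher in TG and a median log2 difference of -1.41. Over all genes tested, 71.2% passed and 35% were lower in TG, which is the measure for this and the following lists. The widest were Shisa9 at -3.25, Syndig1 at -2.63 and Cacng8 at -2.56. Shisa9, Cacng8 and 4 others of the list reached a mean of 1 FPKM in Sp5C alone, so their tissue means had to differ, which favoured a call. Of the 9 that reached it in both tissues, 8 were higher in Sp5C and 1 in TG. The exception was Cacng5, which encodes TARP gamma-5, with a mean FPKM of 8.44 ± 0.784 in the ganglion and 4.36 ± 1.05 in the nucleus (SD, n = 6 each, log2 difference 0.83, limma adjusted p = 6.76e-05).

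Of 12 genes of AMPA receptor assembly and trafficking, 8 were higher in Sp5C, 1 in TG and 3 did not pass, with a median of -0.52. Arc, an immediate early gene product that drives receptor uptake, stood at -2.25, Grip2, a scaffold that binds GluA2, at -1.84, and Frrs1l, an assembly factor, at -1.44, while Gripap1 was at 0.17. Those that did not pass were Cpt1c, Grip1 and Akap5. All 10 postsynaptic scaffold genes were higher in Sp5C, with a median of -1.24, among them Shank1 at -2.70, Dlg3 at -1.57 and Shank2 at -1.55.

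Kainate auxiliary genes were higher in the nucleus, unlike Grik1. Neto1 and Neto2, whose products bind kainate receptors and slow their decay, had a mean FPKM of 1.03 ± 0.198 and 4.47 ± 0.189 in TG and of 8.62 ± 0.342 and 15.8 ± 0.893 in Sp5C (SD, n = 6 each). Their log2 differences were -2.25 and -1.61, and that of C1ql3, a secreted synaptic organizer, was -2.08. All 3 tested genes of the list were higher in Sp5C, and C1ql2 was under the filter.

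The neuronal pentraxins, proteins that gather AMPA receptors at synapses, went the other way, with 3 of 3 higher in TG. Nptx2 had a mean FPKM of 21.8 ± 2.71 in the ganglion and 2.13 ± 0.491 in the nucleus (SD, n = 6 each, log2 difference 2.87, limma adjusted p = 1.03e-10), Nptx1 had a log2 difference of 0.66 and Nptxr of 0.26. The 3 adenosine deaminase genes, which include the enzymes that edit receptor RNA, were higher in Sp5C, Adarb2 at -2.16, Adar at -1.06 and Adarb1 at -0.87. Of these, Adarb2 reached a mean of 1 FPKM in Sp5C alone, so its tissue means had to differ, which favoured a call. FPKM values do not show editing itself.

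On the releasing side, the vesicular transporter gene Slc17a6, which loads glutamate into vesicles, had a mean FPKM of 55.9 ± 2.74 in the ganglion and 55.6 ± 3.64 in the nucleus (SD, n = 6 each), with a log2 difference of 0.01, while Slc17a7 was higher in TG at 0.47. The uptake carriers Slc1a2, Slc1a1 and Slc1a3 were higher in Sp5C at -5.45, -2.91 and -2.49. The 5 astrocyte markers other than Slc1a2 were all higher there too, with a median of -2.81. The part of astrocytes in the Slc1a2 and Slc1a3 differences, and of any cell type in that of Slc1a1, was not tested. Of the 6 genes tested in this list, 1 was higher in TG, 4 in Sp5C and 1 did not pass. Between C and S, limma called 0 of the 46 genes of these 7 lists tested in TG and 0 of the 53 tested in Sp5C (smallest adjusted p 0.96 and 0.904). An unadjusted p under 0.05 was found for 1 gene in TG, Nptx2, and for 2 in Sp5C, C1ql3 and Shisa8, against 4.7% and 5.02% of all genes tested.

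The genes whose levels over the 12 libraries were nearest to a subunit's were found by the root mean square difference of log2(FPKM + 1) among 13080 other genes. Nearest to Gria2 was Gria3 at 0.148, followed by Stxbp5l at 0.16. Nearest to Gria1 were Hap1 at 0.226 and Caly at 0.238, to Gria3 Camkk1 at 0.105 and B630019K06Rik at 0.146, and to Gria4 Atcay at 0.109 and Klhl11 at 0.13. For the kainate genes they were Cdh19 at 0.146 and Emp2 at 0.217 for Grik1, Rbm4b at 0.12 and Camk4 at 0.129 for Grik2, and Ankrd45 at 0.0888 and Mcc at 0.099 for Grik3. Slc38a9 at 0.101 and Dhx33 at 0.107 lay nearest to Grik4, and Ppm1f at 0.106 and Ptprt at 0.122 to Grik5. The measure weighs level and tissue difference together, and a small value says only that the levels were close in these libraries.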

How the data were processed

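Total RNA of 12 libraries was depleted of ribosomal RNA and made into directional libraries, per the labels' protocols. For each transcript and library the authors deposited 1 FPKM value, a number of fragments per transcript length and library size. Per the submitters' processing notes, StringTie 1.3.1, Cuffdiff 2.1.1 and HISAT2 were used. The build, the annotation and the version of HISAT2 were not given in the sources used here. Depth per library is unknown, so no counting error is given. All 33 transcript identifiers were found in GENCODE M21, and 57015 of 57109 in the table.

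FPKM was summed per gene. Genes with a mean of at least 1 FPKM (transcripts 0.5) in the libraries compared entered tests on log2(FPKM + 1) (transcripts + 0.5), which understates changes of low genes, by limma 3.58.1 (R 4.3.3) with Benjamini-Hochberg adjustment over all features tested and a threshold of 0.05. The tissue contrast and the difference of effects used all 12 libraries, and C minus S the 6 of its tissue. Shares were compared with exact permutation tests over libraries (scipy 1.17.1). The procedure was tested on simulated data. The members and lists were chosen with earlier results of these data known. Named were all 9 genes, their 2 nearest genes and up to 3 passing genes of each list in each direction, and others were named after their values were seen. The flop shares and the Grik1 exon shares were added after values were seen. Alternatives covered pseudocounts, filters, scaling, the replicate block and left-out libraries. The tables of long non-coding RNA were not used. One list of related receptor genes is not reported here.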

Additional observations from a re-analysis of the deposited data

Results flagged for a closer look

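In 44 sets of 6 libraries (the FPKM of each subunit gene, its share in its family and the flop shares, in each tissue), 5 sets had one library whose distance to its nearest neighbour took an unusually large part of the range of the set by Dixon's criterion. Chance alone sets apart about 1 in 20 such sets. Gria1 FPKM in TG was highest in STG replicate 1, at 3.6, the library with the highest pituitary marker sum, 2860. Grik4 FPKM in Sp5C was highest in SSp5C replicate 3, at 5.01. The other 3 were flop shares. That of Gria2 in TG was lowest in CTG replicate 1, at 79.9%, that of Gria4 in TG was highest in STG replicate 3, at 69.2%, and that of Gria3 in Sp5C was highest in SSp5C replicate 1, at 44.0%.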

How the results depend on the processing

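The tissue call and direction of each of the 9 genes held under all 23 alternatives run for it. Scaling to neuron markers moved the median of all genes from 0.009 to -0.104 and the split of calls from 4739 higher and 4575 lower in TG to 3517 and 5448, and Grik1 and Grik4 were then at 1.84 and 0.60. With the highest transcript of each gene only, the Gria3 share of AMPA FPKM reversed to 6.12 points higher in TG (adjusted exact permutation p = 0.00278). Within the S libraries only and within the C libraries only, 0 of 9 subunit shares passed, which 3 against 3 cannot do. Without Gria3-209, 0 flop shares passed.

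No subunit gene or transcript was called between C and S under any alternative run. Counts over all genes were small and moved. In TG the count of 1 gene became 0 with a mean of at least 5 FPKM, 0 in a fit of all 12 libraries, 2 with quantile normalization, 3 with neuron scaling, 5 without STG replicate 1 and CTG replicate 1, and 0 to 7 leaving out 1 library. In Sp5C the 4 genes became 0 with a mean of at least 5 FPKM, 0 in the fit of all 12 libraries and 0 to 8 leaving out 1 library. The difference of effects gave 0 genes, and 0 to 2 leaving out 1 library. Of transcripts, the 17 in TG became 6 with a mean of at least 2 FPKM and 18 to 37 leaving out 1 library, and the 2 in Sp5C became 6 with a pseudocount of 1, 1 without a filter and 10 to 25 leaving out 1 library. The cause was not tested.

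Replicate numbers were not taken as pairs: same-numbered libraries correlated at -0.197 to 0.383, with 5 of 12 pairs over 0.1 and 6 of 12 libraries nearest their own number. The 3 pairs of CTG with CSp5C were each nearest their own number (0.333, 0.228 and 0.383), those of STG with SSp5C were not (-0.08, -0.197 and -0.023). With the replicate block, 9267 genes were called between tissues, against 9314, and 0 genes and 0 transcripts between C and S in TG and in Sp5C. No call or direction of the 9 genes changed. An exact sign-flip test over the pairs reaches 0.03125 at best, which passes after adjustment only when most tests of a set reach it. By it, 7 of 9 subunit shares, 0 of 20 transcript shares and 0 of 4 flop shares passed. The counts of 0 therefore say little about single shares.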
